A study of Mus musculus with 8 samples.

Results

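The 39 genes described here belong to the unfolded protein response and the amino acid stress response, and they were chosen by name: 4 sensors and transducers of stress in the endoplasmic reticulum (ER), 11 ER chaperones and folding enzymes, 4 genes of ER-associated degradation, and 20 genes of the ATF4 branch (9 factors and targets, 8 enzymes of amino acid and one-carbon metabolism, 3 amino acid transporters). They are 39 of the 19937 genes that had a probe set of their own on the array. Each gene was read from the probe set that carries its symbol alone and, where there were several, from the one with the highest mean. Only Pdia4 had a second one, whose difference between the groups was 0.018 against -0.031 for the one used. All 39 were above the expression limit of 4.0 on the log2 scale, with means over all tumors from 5.60 to 12.28.

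The RNA came from 8 tumors of 4T1 cells, a mammary carcinoma line of BALB/c origin that forms metastasizing tumors, injected orthotopically into BALB/c mice. In 4 of them the fourth mammary gland had received a local X-ray dose of 20 Gy before the injection (preirradiated tumors), and in the other 4 it had not (nonirradiated tumors). All were collected after 18 days, and no genotype, age or treatment other than the irradiation of the bed sets the groups apart in the labels. The tumor cells themselves were not irradiated in either group. Whether the tumors came from separate mice is not in the labels, so p-values measure the spread between these tumors. Of 5 keratins of epithelial cells, the luminal pair was high in every tumor, with Krt8 at log2 signals of 12.45 to 12.63 and Krt18 at 11.80 to 12.03. The others were lower and more variable, with Krt19 at 6.91 to 7.90, Krt14 at 6.39 to 8.35 and Krt5 at 5.42 to 7.37. Whole tissue was extracted, and in such bulk samples fewer cells of a type and less RNA per cell cannot be told apart.

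When unfolded protein accumulates in the ER, the sensors IRE1 (gene Ern1), PERK (Eif2ak3) and ATF6 are activated. IRE1 splices the Xbp1 transcript, ATF6 is cut to release a transcription factor, and both raise chaperone and degradation genes. PERK phosphorylates eIF2alpha, which lowers general protein synthesis and raises translation of ATF4. ATF4 is also reached through other eIF2alpha kinases when amino acids are short, without an ER signal, and it raises amino acid synthesis, transport and, in prolonged stress, Ddit3 (CHOP). In solid tumors both programs are known from poorly perfused and fast growing regions. The values here are gene-level transcript signals, so splicing of Xbp1, cleavage of ATF6 and translation of Atf4 were not measured.

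Promoters of the ER branch and the ATF4 branch were searched for motifs known from such genes. The genes were grouped by their known roles, so the counts describe this division and do not test it. RefSeq promoter sequence of build GRCm38.p6, from 250 bases before to 50 after the start site, was at hand for 35 of the 39 genes and not for Atf6, Hyou1, Manf and Slc7a5. It was searched on both strands for the ER stress response element (ERSE), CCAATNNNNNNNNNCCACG, and for its second form (ERSE-II), ATTGGNCCACG, both known for ATF6 and XBP1. The search also covered the XBP1 and ATF6 core TGACGTGG, and the core of the C/EBP-ATF response element (CARE) through which ATF4 acts, TGATGNAA. No match overlapped a match to another of the 4 motifs. The ERSE stood in 5 of 9 chaperone promoters (Hspa5, Hsp90b1, Pdia6, Dnajc3 and Creld2), in the Syvn1 promoter and in 0 of 19 ATF4 branch promoters, against 0.137% of the 27025 genes in the table. ERSE-II stood in the Dnajb11 and Herpud1 promoters and in 0.0444% of all genes, and TGACGTGG in 0 members and 0.714% of all genes. The CARE core stood in 7 of 19 ATF4 branch promoters (Atf3, Chac1, Trib3, Vldlr, Asns, Pck2 and Slc7a11), in that of Herpud1 and in 0 of 9 chaperone promoters, against 4.51% of all genes. A match describes letters in this window and is not evidence of binding.

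The following stretches are shown because the results below turn on these genes. They are printed 5′ to 3′ on the strand of the gene, with the motif in capitals. The first 5 hold the ERSE or ERSE-II of chaperones, and the others hold the CARE core of ATF4 branch genes. In Creld2, Chac1, Vldlr, Trib3 and Pck2 the motif is on the opposite strand and reads in reverse complement.
Hspa5 (chr2:34772010-34772058, plus strand): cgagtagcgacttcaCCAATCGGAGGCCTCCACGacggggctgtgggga
Dnajc3 (chr14:118937812-118937860, plus strand): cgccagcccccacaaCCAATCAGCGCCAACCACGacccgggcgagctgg
Creld2 (chr15:88819505-88819553, plus strand): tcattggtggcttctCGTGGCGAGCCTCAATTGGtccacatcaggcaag
Pdia6 (chr12:17266476-17266524, plus strand): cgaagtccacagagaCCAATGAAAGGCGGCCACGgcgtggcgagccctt
Dnajb11 (chr16:22857847-22857867, plus strand): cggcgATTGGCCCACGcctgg
Asns (chr6:7693210-7693247, minus strand): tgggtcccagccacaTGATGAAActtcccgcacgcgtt
Chac1 (chr2:119351034-119351071, plus strand): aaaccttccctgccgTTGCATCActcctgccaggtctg
Vldlr (chr19:27216805-27216842, plus strand): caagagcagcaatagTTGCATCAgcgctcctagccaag
Trib3 (chr2:152344034-152344051, minus strand): caggtTTACATCAgccgg
Pck2 (chr14:55540148-55540185, plus strand): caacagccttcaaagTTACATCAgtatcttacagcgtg
Slc7a11 (chr3:50443657-50443694, minus strand): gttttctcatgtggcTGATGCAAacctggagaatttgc
In the Slc7a11 promoter a second copy, on the opposite strand, lies close downstream.

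No gene of the 39 differed between preirradiated and nonirradiated tumors past any threshold used. By limma with Benjamini-Hochberg adjustment over all 34738 probe sets tested, 0 of 39 passed an adjusted p of 0.05, as did 0% of the 19937 genes, and the smallest adjusted p of a member was 0.851. The filter of the study (unadjusted p up to 0.05, log2 difference of 0.4 or more, mean of 4.0 or more) was passed by 0 members in either direction, against 0.346% of all genes higher and 0.14% lower in preirradiated tumors. At an unadjusted limma p under 0.05 the counts were again 0 members higher and 0 lower, against 2.39% and 3.27% of all genes. Groups of tumors that did not overlap were found for 0 members, against 1.7% of all genes higher and 1.95% lower. With shares that small, few of 39 genes would be counted at the background rate, so a count of 0 is near the background.

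The size of what the arrays could have missed can be read from the intervals. All 39 intervals for the difference (95%, limma, preirradiated minus nonirradiated) included 0, and their median half-width was 0.18 on the log2 scale. For 33 of 39 genes the interval lay within 0.4 in either direction, a change of signal by 1.32-fold, and for 13 it lay within 0.2. Of all genes, 92.0% had an interval within 0.4. The 6 members whose interval reached beyond 0.4 were Dnajb9, Atf3, Chac1, Vldlr, Phgdh and Slc7a11, each of which varied widely among tumors of one group. The number of arrays, 4 against 4, limits this precision.

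The direction of the differences was mostly downward and their size small. In preirradiated tumors 32 of 39 genes were lower and 7 higher (82.1% lower), while 52.6% of all genes were lower. Among genes with a mean of at least 6, 32 of 38 members were lower (84.2%), against 58% of 11456 genes. The median difference of the members was -0.032 against -0.004 for all genes, and the median size 0.062 against 0.042. Within 0.1 of no difference lay 25 members, and 81.6% of all genes. After a further quantile normalization 25 members were lower (64.1%, against 57.4% of all genes), and with each array centred on its median 35 were lower (89.7%, against 73.7% of all genes). Without nonirradiated tumor 3 the count was 25 (64.1%, against 52.1% of all genes), and without preirradiated tumor 2 it was 26 (66.7%, against 51.6%). Single tumors weighed on these small values: for 38 of 39 members, and for 88.7% of all genes, leaving out 1 tumor changed the size of the difference by more than 1.5 times or turned it. The smallest unadjusted limma p was 0.0554 (Sdf2l1), which ranked 1265 among 19937 genes.

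**Figure D1:**
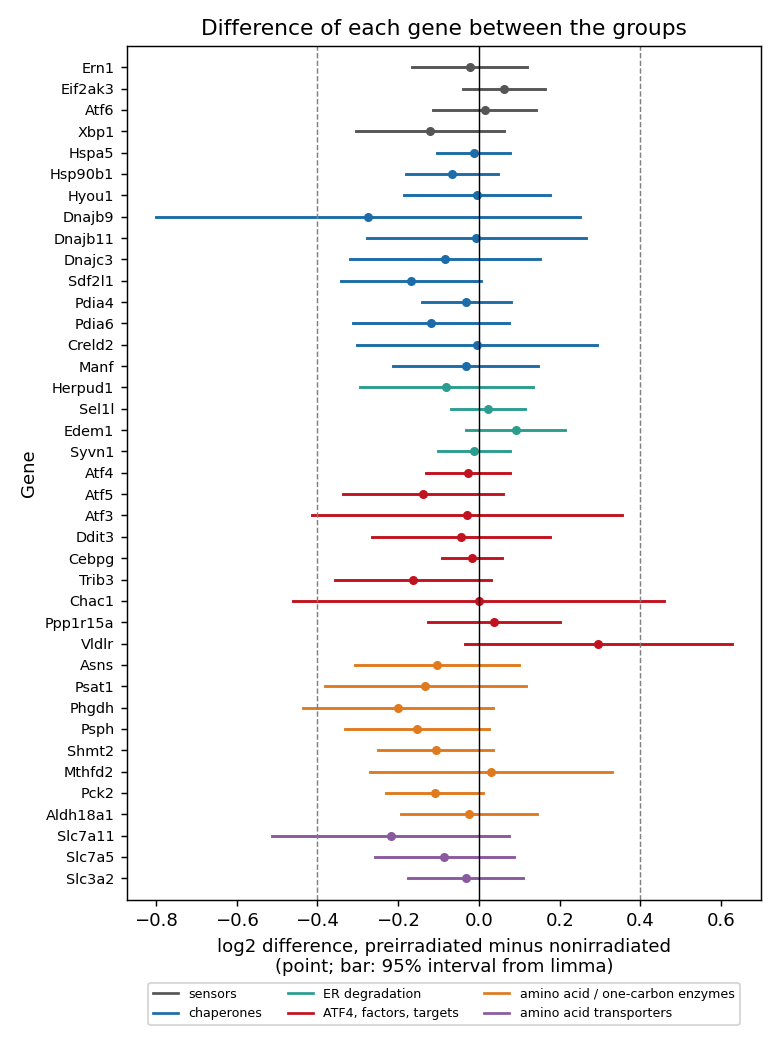
Difference between preirradiated and nonirradiated tumors for each of the 39 genes, on the log2 scale. Points are differences of group means (4 tumors each), bars are 95% intervals from limma, colours are the roles of the genes, and dashed lines mark the study's change limit of 0.4. All 39 bars cross 0, and 32 points lie to the left of it.

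Among the sensors, levels in the 2 groups lay close together. Ern1, the gene of IRE1, had log2 signals of 9.74, 9.64, 9.91 and 9.88 in nonirradiated tumors 1 to 4 and 9.81, 9.72, 9.77 and 9.77 in preirradiated tumors 1 to 4. The preirradiated tumors lay inside the range of the nonirradiated ones, and the difference was -0.023 (interval -0.17 to 0.12). For Eif2ak3, the gene of PERK, signals were 7.77, 7.68, 7.83 and 7.80 in the nonirradiated and 7.84, 7.89, 7.83 and 7.78 in the preirradiated tumors, a difference of 0.062 (interval -0.039 to 0.16). Nonirradiated tumor 2 was the lowest and preirradiated tumor 2 the highest, and the groups overlapped. Atf6 gave 9.66, 9.62, 9.75 and 9.82 against 9.79, 9.64, 9.71 and 9.76, a difference of 0.014 (interval -0.11 to 0.14), with the preirradiated tumors again inside the nonirradiated range. The direction of the differences of Ern1 and Atf6 turned when single tumors were left out, and that of Atf6 also with centred or weighted arrays.

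Xbp1, which encodes the transcription factor made by IRE1 splicing, was the most variable of the 4. Its signals were 11.18, 11.03, 11.16 and 11.17 in the nonirradiated tumors and 11.01, 11.20, 11.05 and 10.81 in the preirradiated ones. Preirradiated tumor 4 was the lowest of all 8 and preirradiated tumor 2 the highest, so the groups overlapped. The difference was -0.12 with a standard error of 0.080 (limma adjusted p = 0.914), and it was -0.054 without preirradiated tumor 4. Without preirradiated tumor 2 it was -0.18 (limma unadjusted p = 0.0341, adjusted p = 0.700).

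All 11 chaperone and folding genes had a lower mean in preirradiated tumors, with differences from -0.28 to -0.005 on the log2 scale, and 0 of 11 passed the test. This count was 7 of 11 after a further quantile normalization, where Hspa5, Hyou1, Dnajb11 and Creld2 turned, and 6 of 11 without preirradiated tumor 1. Hspa5, the gene of BiP, the main ER chaperone and the usual readout of ER stress, was given for its place in the pathway and picked with values known. It had signals of 12.27, 12.29, 12.34 and 12.26 in the nonirradiated and 12.23, 12.24, 12.33 and 12.30 in the preirradiated tumors. These spanned 0.12 over all 8 tumors, and the groups overlapped in most of that range. The difference was -0.013, a fold of 0.991 with an interval from 0.931 to 1.055.

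Hsp90b1, the ER form of HSP90, gave 12.00, 11.87, 11.93 and 11.91 against 11.84, 11.76, 11.93 and 11.92. Preirradiated tumor 2 was the lowest and nonirradiated tumor 1 the highest, and the difference was -0.067 (interval -0.18 to 0.047). For Sdf2l1, a BiP cofactor that acts with ER DnaJ proteins, signals were 10.02, 10.00, 10.07 and 9.94 in the nonirradiated and 9.62, 9.98, 9.84 and 9.90 in the preirradiated tumors. All 4 preirradiated tumors lay below the nonirradiated mean of 10.01, but preirradiated tumor 2 lay above nonirradiated tumor 4, so the groups overlapped. The difference of -0.17 (standard error 0.076, limma adjusted p = 0.851) was -0.098 without preirradiated tumor 1. Without preirradiated tumor 2 it was -0.22 (limma unadjusted p = 0.0188, adjusted p = 0.664).

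Pdia6, a protein disulfide isomerase, had signals of 10.86, 11.00, 11.01 and 10.90 in the nonirradiated and 10.63, 10.79, 10.82 and 11.04 in the preirradiated tumors. Of the preirradiated tumors, 3 were lower than every nonirradiated one and tumor 4 was the highest of all 8. The difference was -0.12 (interval -0.31 to 0.074, limma adjusted p = 0.923). Omitting preirradiated tumor 1 gave -0.055, and omitting preirradiated tumor 4 gave -0.19 (unadjusted p = 0.0174, limma adjusted p = 0.584). The other chaperones in this group, Pdia4 and Manf, differed by -0.031 and -0.032, with overlapping groups.

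Several chaperones shared a spread among the preirradiated tumors that was wider than the difference between the groups. These genes were picked after their values had been seen. Dnajb11, a BiP cochaperone, had signals of 8.83, 8.70, 8.75 and 8.60 in the nonirradiated and 8.44, 8.57, 8.82 and 9.01 in the preirradiated tumors. Creld2, an ER folding factor, gave 9.46, 9.40, 9.49 and 9.25 against 9.10, 9.28, 9.45 and 9.75. In both genes preirradiated tumor 1 was the lowest and preirradiated tumor 4 the highest of all 8, and the nonirradiated tumors lay between them.

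Dnajc3, the cochaperone P58IPK that also inhibits PERK, showed 10.34, 10.22, 10.23 and 10.03 in the nonirradiated and 9.87, 10.09, 10.20 and 10.32 in the preirradiated tumors. Hyou1, a large ER chaperone of the HSP70 superfamily, showed 10.15, 10.21, 10.20 and 10.06 and 10.03, 10.01, 10.22 and 10.34. For Hyou1 preirradiated tumors 1 and 2 were the lowest and preirradiated tumor 4 the highest, and for Dnajc3 preirradiated tumor 1 was the lowest while nonirradiated tumor 1 and preirradiated tumor 4 were the highest. The differences between the groups were -0.007, -0.006, -0.084 and -0.005 for Dnajb11, Creld2, Dnajc3 and Hyou1, each smaller than the standard deviation among the preirradiated tumors.

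Dnajb9, an ER DnaJ protein that is a classical XBP1 target and restrains IRE1, ran the other way. It was likewise picked after its values had been seen. Its signals were 8.67, 8.32, 8.65 and 8.86 in the nonirradiated and 8.55, 8.70, 8.51 and 7.64 in the preirradiated tumors, a span of 1.23 or 2.34-fold. Preirradiated tumor 4, the highest for Dnajb11 and Creld2, was by far the lowest for Dnajb9. The group difference of -0.28 (standard error 0.229, limma adjusted p = 0.945) became -0.037 without that tumor. The within-group spread of Dnajb9 was above that of 98.5% of all genes.

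Genes of ER-associated degradation were split, with 2 of 4 lower and 2 higher, and 0 passed the test. Edem1, which hands misfolded glycoproteins to degradation, had signals of 9.96, 9.75, 9.86 and 9.88 in the nonirradiated and 9.87, 9.96, 9.98 and 10.00 in the preirradiated tumors. Nonirradiated tumors 1 and 4 lay above the lowest preirradiated tumor, and the difference was 0.092 (interval -0.031 to 0.21, limma adjusted p = 0.892). Herpud1, a scaffold of the degradation complex with both an ERSE-II and a CARE core in its promoter, gave 9.60, 9.67, 9.68 and 9.91 against 9.74, 9.62, 9.76 and 9.42. The highest was nonirradiated tumor 4 and the lowest preirradiated tumor 4, and the difference was -0.081 (interval -0.29 to 0.13). It was -0.015 without the former and -0.009 without the latter.

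Sel1l, the adaptor of the ubiquitin ligase encoded by Syvn1, gave 9.60, 9.59, 9.67 and 9.61 against 9.62, 9.67, 9.58 and 9.70, with groups that overlapped throughout and a difference of 0.023 (interval -0.069 to 0.12), whose direction turned with centred or weighted arrays. Syvn1 differed by -0.012 (interval -0.10 to 0.077).

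Of the 9 ATF4 branch factors and targets, 7 were lower and 2 higher, and 0 passed the test. Atf4 itself had signals of 7.50, 7.52, 7.58 and 7.54 in the nonirradiated and 7.59, 7.41, 7.54 and 7.48 in the preirradiated tumors. Preirradiated tumors 1 and 2 were the highest and the lowest of all 8, and the difference was -0.027 (interval -0.13 to 0.078). Ddit3, the gene of CHOP, a factor of prolonged stress, gave 6.13, 6.38, 6.58 and 6.42 against 6.49, 6.24, 6.32 and 6.28. All preirradiated tumors lay within the nonirradiated range, and the difference was -0.045 (interval -0.27 to 0.18). Atf4 and Ddit3, like Atf3, Chac1, Mthfd2, Asns and Psat1 below, are given because of their place in the pathway or their spread, and were picked with values known.

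Trib3, a pseudokinase that dampens ATF4 and CHOP, had signals of 7.19, 7.52, 7.15 and 7.29 in the nonirradiated and 7.18, 7.03, 7.07 and 7.20 in the preirradiated tumors. Preirradiated tumors 2 and 3 were below all nonirradiated ones and the other two were not, and the difference was -0.16 (standard error 0.084, limma adjusted p = 0.874). Atf5, a factor related to ATF4 and translated in a like manner, gave 8.13, 8.38, 8.07 and 7.98 against 7.92, 8.02, 7.96 and 8.11. Nonirradiated tumor 2 stood highest and the rest overlapped, with a difference of -0.14 (interval -0.34 to 0.059, limma adjusted p = 0.902). Trib3 and Atf5 shared this high value in nonirradiated tumor 2, and without that tumor their differences were -0.086 and -0.059. Without nonirradiated tumor 3 that of Trib3 was -0.21 (limma unadjusted p = 0.0447, adjusted p = 0.863).

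The member with the largest positive difference was Vldlr, a lipoprotein receptor gene known as an ATF4 target. Its signals were 5.37, 5.51, 5.53 and 5.41 in the nonirradiated and 5.76, 5.54, 6.20 and 5.50 in the preirradiated tumors. Preirradiated tumor 3 was far above the rest and preirradiated tumor 1 second, while preirradiated tumors 2 and 4 lay near the upper end of the nonirradiated ones, and the groups overlapped through tumor 4. The difference was 0.30 (standard error 0.144, limma adjusted p = 0.873). Without preirradiated tumor 4 it was 0.38 (limma unadjusted p = 0.0326, adjusted p = 0.631). Leaving out preirradiated tumor 3 brought it to 0.15, and leaving out tumor 1 as well to 0.065. These same tumors carried signal of skeletal muscle: the mean over 10 muscle genes stood 2.95 and 4.40 above the nonirradiated mean in preirradiated tumors 1 and 3, and between -0.13 and 0.21 in the other 6. The part of muscle tissue in the Vldlr signal was not tested.

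Chac1, an enzyme that degrades glutathione and is one of the most responsive ATF4 targets, was split within the preirradiated group. Signals were 7.85, 8.11, 7.92 and 7.92 in the nonirradiated and 8.18, 7.51, 8.46 and 7.64 in the preirradiated tumors. Preirradiated tumors 1 and 3 lay above every nonirradiated tumor and preirradiated tumors 2 and 4 below every one, which left a difference of -0.001 (interval -0.46 to 0.46). Without preirradiated tumors 1 and 3 the difference was -0.38 (limma unadjusted p = 0.00367, adjusted p = 1.00). Atf3, a stress factor downstream of ATF4, gave 8.46, 8.51, 8.73 and 8.86 against 9.09, 8.48, 8.58 and 8.30, with preirradiated tumor 1 the highest and tumor 4 the lowest of all 8, and a difference of -0.029 (interval -0.41 to 0.35). Cebpg, the C/EBP partner of ATF4, varied least of all members, with a spread lower than that of all but 1.5% of genes and a difference of -0.018. Ppp1r15a, the GADD34 phosphatase subunit that reverses eIF2alpha phosphorylation, differed by 0.037 (interval -0.13 to 0.20).

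**Figure D2:**
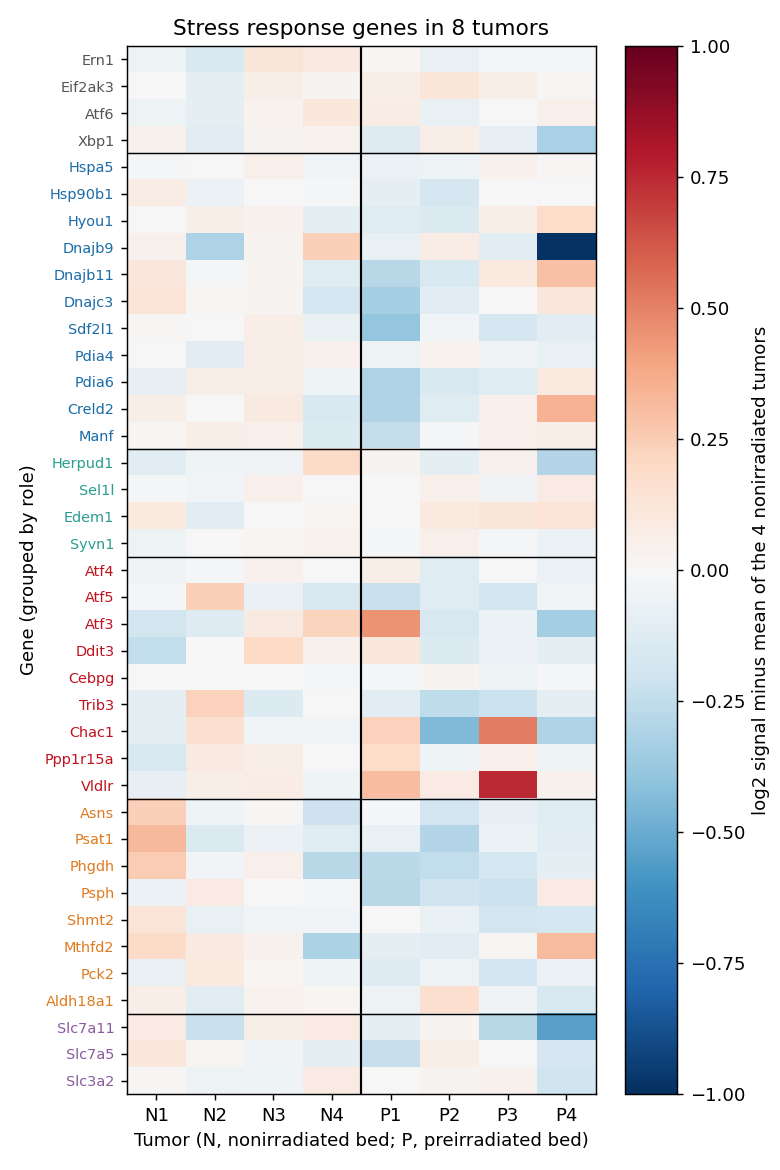
Signals of the 39 genes in the 8 tumors, as the log2 value minus the mean of the 4 nonirradiated tumors of the same gene (colour, from -1 in blue to 1 in red). Columns are nonirradiated tumors N1 to N4 and preirradiated tumors P1 to P4, and horizontal lines part the roles: sensors, chaperones, ER degradation, ATF4 factors and targets, enzymes, and transporters. Most cells are pale, and the strong ones lie in single preirradiated tumors, such as Dnajb9 in P4 and Vldlr in P3.

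Enzymes that supply amino acids and one-carbon units were lower in 7 of 8 cases, with a median difference of -0.11 and 0 past the test. Phgdh, Psat1 and Psph carry out the consecutive steps of serine synthesis. Phgdh signals were 7.81, 7.53, 7.61 and 7.28 in the nonirradiated and 7.29, 7.31, 7.38 and 7.46 in the preirradiated tumors. Nonirradiated tumor 4 was the lowest of all 8, below every preirradiated tumor, and the other nonirradiated tumors were above all of them. The difference was -0.20 (standard error 0.103, limma adjusted p = 0.874), and without nonirradiated tumor 4 it was -0.29 (unadjusted p = 0.00596, limma adjusted p = 0.924). With nonirradiated tumor 1 left out instead, the difference shrank to -0.12.

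Psph gave 8.10, 8.24, 8.15 and 8.14 against 7.88, 7.96, 7.94 and 8.24. Preirradiated tumors 1 to 3 were below every nonirradiated tumor and tumor 4 was level with the highest one, and the difference was -0.15 (standard error 0.078, limma adjusted p = 0.874). Without preirradiated tumor 4 it was -0.23 (unadjusted p = 0.00144, limma adjusted p = 0.449). The omission of preirradiated tumor 1 brought it to -0.11, and that of both preirradiated tumors 1 and 3 to -0.06. Psat1 had signals of 8.58, 8.11, 8.19 and 8.13 and 8.18, 7.96, 8.19 and 8.14. Nonirradiated tumor 1 stood apart at the top, and the difference of -0.13 (interval -0.38 to 0.12) was -0.024 without it.

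Asns, asparagine synthetase and a long-studied CARE-driven gene, gave 9.85, 9.57, 9.62 and 9.40 in the nonirradiated and 9.59, 9.42, 9.53 and 9.49 in the preirradiated tumors. Nonirradiated tumor 1 was again the highest and nonirradiated tumor 4 the lowest, and the difference of -0.10 (interval -0.31 to 0.10) was -0.025 without nonirradiated tumor 1. Pck2, the mitochondrial form of phosphoenolpyruvate carboxykinase, had signals of 8.32, 8.49, 8.41 and 8.35 in the nonirradiated and 8.26, 8.34, 8.20 and 8.33 in the preirradiated tumors. The groups overlapped only between the highest preirradiated and the lowest nonirradiated tumors, and the difference was -0.11 (standard error 0.052, limma adjusted p = 0.869).

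Mthfd2, the mitochondrial folate enzyme, was the one enzyme with a higher mean, by 0.030 (interval -0.27 to 0.33), and by -0.004 with centred arrays. Its signals were 8.16, 8.06, 8.01 and 7.65 against 7.87, 7.86, 7.98 and 8.29, with nonirradiated tumor 4 the lowest and preirradiated tumor 4 the highest. Shmt2, which makes mitochondrial one-carbon units from serine, differed by -0.11 (interval -0.25 to 0.036), and Aldh18a1, of proline synthesis, by -0.024 (interval -0.19 to 0.14).

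The 3 transporters were lower in the mean, and 0 passed the test. Slc7a11, the cystine importer, had signals of 9.25, 8.95, 9.23 and 9.25 in the nonirradiated and 9.08, 9.20, 8.89 and 8.63 in the preirradiated tumors. Preirradiated tumors 3 and 4 were below all others, while preirradiated tumor 2 and 3 of the nonirradiated tumors were the highest. The difference was -0.22 (standard error 0.128, limma adjusted p = 0.892), and -0.11 without preirradiated tumor 4. Without preirradiated tumor 2 it was -0.30 (limma unadjusted p = 0.0404, adjusted p = 0.712). Slc7a5, the light chain of the large neutral amino acid transporter, gave 11.04, 10.95, 10.89 and 10.83 against 10.70, 10.99, 10.92 and 10.76, a difference of -0.086 (interval -0.26 to 0.086). The lowest were preirradiated tumors 1 and 4, and the groups overlapped.

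Slc3a2, the heavy chain shared by Slc7a5 and Slc7a11, gave 11.75, 11.69, 11.70 and 11.82 against 11.74, 11.77, 11.78 and 11.54. Preirradiated tumor 4 was the lowest and the rest lay together, and the difference of -0.033 (interval -0.17 to 0.11) turned to 0.007 after a further quantile normalization. Slc7a11 and Slc3a2, which form one transporter, thus both had their lowest value in preirradiated tumor 4.

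The ER chaperone branch and the ATF4 branch were compared within each tumor, as the mean deviation of the 20 ATF4 branch genes from their nonirradiated means minus that of the 11 chaperones. These contrast values were -0.014, 0.041, -0.032 and 0.004 in nonirradiated tumors 1 to 4 and 0.19, -0.028, -0.010 and -0.11 in preirradiated tumors 1 to 4. Only preirradiated tumors 1 and 4 lay outside the nonirradiated range, one above it and one below. The group means differed by 0.012, against standard deviations of 0.031 among nonirradiated and 0.13 among preirradiated tumors (n = 4 each). Leaving out preirradiated tumor 1 gave a difference of -0.048, leaving out preirradiated tumor 4 gave 0.051, and leaving out both tumors 1 and 3 gave -0.067. No p is given for a score over genes chosen with results known.

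The means of the single roles showed where these tumors parted. Over the 11 chaperones preirradiated tumors 1 to 4 stood at -0.20, -0.074, -0.013 and -0.003, against -0.050 to 0.047 in the nonirradiated tumors. The value near 0 in preirradiated tumor 4 held opposite parts. That tumor was the highest of 8 for 5 of 11 chaperones, against 20.1% of all genes. It was the lowest for 1 of 11, Dnajb9, at 7.64 against a nonirradiated mean of 8.62. Preirradiated tumor 1 was the lowest of 8 for 7 of 11 chaperones, and for 15.4% of all genes. The mean difference of the chaperones was -0.073, and -0.030 without that tumor. Over the 9 ATF4 factors and targets preirradiated tumors 1 and 3 stood at 0.11 and 0.083 and preirradiated tumors 2 and 4 at -0.13 and -0.10, against -0.10 to 0.070 in the nonirradiated tumors, with a mean difference of -0.010. Without both preirradiated tumors 1 and 3 the mean difference of these 9 genes was -0.12. These tumors carried muscle signal, and tumor 1 also differed in adipocyte and in T and NK cell genes, as given below. Preirradiated tumor 4 was low in T and NK cell genes too. The part of any of these in the values was not tested.

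For the 8 enzymes preirradiated tumors 1 to 4 stood at -0.11, -0.12, -0.12 and -0.043. Nonirradiated tumors ranged from -0.12 to 0.13, so the preirradiated tumors lay inside that range or at its lower edge. The mean difference was -0.10, and -0.056 without nonirradiated tumor 1. For the transporters preirradiated tumor 4 stood at -0.30 and the mean difference was -0.11, which was -0.049 without it.

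**Figure D3:**
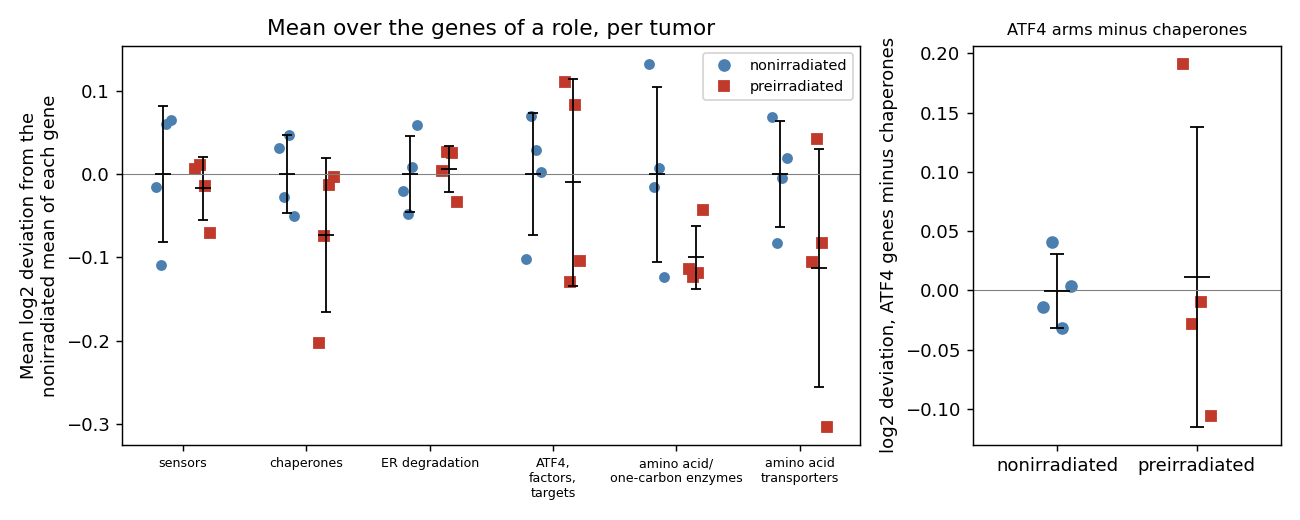
Left, mean over the genes of each role of the log2 deviation from the nonirradiated mean, 1 point per tumor (circles nonirradiated, squares preirradiated), with horizontal bars for group means and whiskers for 1 standard deviation (n = 4). Right, ATF4 branch genes minus chaperones in each tumor, where preirradiated tumor 1 stands at 0.19 and preirradiated tumor 4 at -0.11. The groups overlap in all 6 roles.

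Tumors of one group differed more in most of these genes than in the median gene of the array. The within-group standard deviation had a median of 0.12 over the members against 0.083 over all genes, 28 of 39 were above the median of all genes, and 8 were among the top 10%. This background was not matched for signal: 38 of 39 members but only 11456 of 19937 genes had a mean of at least 6. Preirradiated tumor 4 held the highest value of 8 for 8 members and the lowest for another 8 (20.5% each), against 20.1% and 13.5% of all genes.

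How the genes varied together was described by the correlation of their deviations from the group means over the 8 tumors. These points share the arrays and their joint normalization, and no p is given. All pairs of named genes, a background not matched for signal, had a median Pearson correlation of 0.02. Over the 55 pairs of chaperones it was 0.61 (Spearman 0.55). It was -0.04 among the 190 pairs of ATF4 branch genes and -0.08 between chaperones and ATF4 branch genes. By role it was 0.46 among sensors and -0.11 among ER degradation genes (6 pairs each). Of the ATF4 roles, factors and targets stood at 0.21 (36 pairs), enzymes at 0.07 (28 pairs) and transporters at 0.30 (3 pairs). Without preirradiated tumors 1 and 4 the sensors stood at 0.69 and the ER degradation genes at -0.01. ATF4 factors and targets, enzymes and transporters then stood at 0.22, 0.06 and 0.09. The chaperone value rested in good part on these tumors and was 0.23 without them. Leaving aside Dnajb9 and Pdia4, chosen because they ran apart from the others, it was 0.73, and 0.58 without those tumors. With preirradiated tumors 1 and 4 left out, only preirradiated tumors 2 and 3 remain in their group. Their deviations from their own mean are equal and opposite, so they count as 1 contrast in each such value.

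Within this pattern Dnajb11 followed Creld2 with r = 0.97 (Spearman 0.88) and Dnajc3 with r = 0.94 (Spearman 0.95), and the values without preirradiated tumors 1 and 4 were 0.90 and 0.86. These 3 genes hold an ERSE or ERSE-II in the promoter stretches shown. Other genes with such a motif went both ways. Hspa5, Hsp90b1 and Pdia6 had r = 0.71, 0.74 and 0.78 with Dnajb11, while Syvn1 and Herpud1 had r = -0.65 and -0.66. The part of the motifs was not tested. Dnajb9 followed Xbp1 with r = 0.92 (Spearman 0.76) and Slc7a11 with r = 0.91 (Spearman 0.83), and ran opposite to Hyou1 with r = -0.86 (Spearman -0.83). Without preirradiated tumors 1 and 4 these were 0.86, 0.86 and -0.74. Chac1 and Vldlr had r = 0.91 (Spearman 0.81), and 0.97 without those tumors. The latter value still holds preirradiated tumor 3, which carried muscle signal and was the highest of 8 for both genes. Mthfd2, an ATF4 branch enzyme, went with Creld2 at r = 0.82 (Spearman 0.81), and Atf3 ran opposite to Dnajc3 at r = -0.91 (Spearman -0.81). Without preirradiated tumors 1 and 4 the former pair had r = 0.85 with a Spearman value of 0.49, and the latter r = -0.73 with a Spearman value of -0.54. All these pairs were picked by hand from the full set after their values had been seen, and pairs of like size were left out. Among those were Eif2ak3 with Pdia4 and Xbp1 with Aldh18a1, each at r = 0.97, and Dnajb9 with Psph at r = -0.93.

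**Figure D4:**
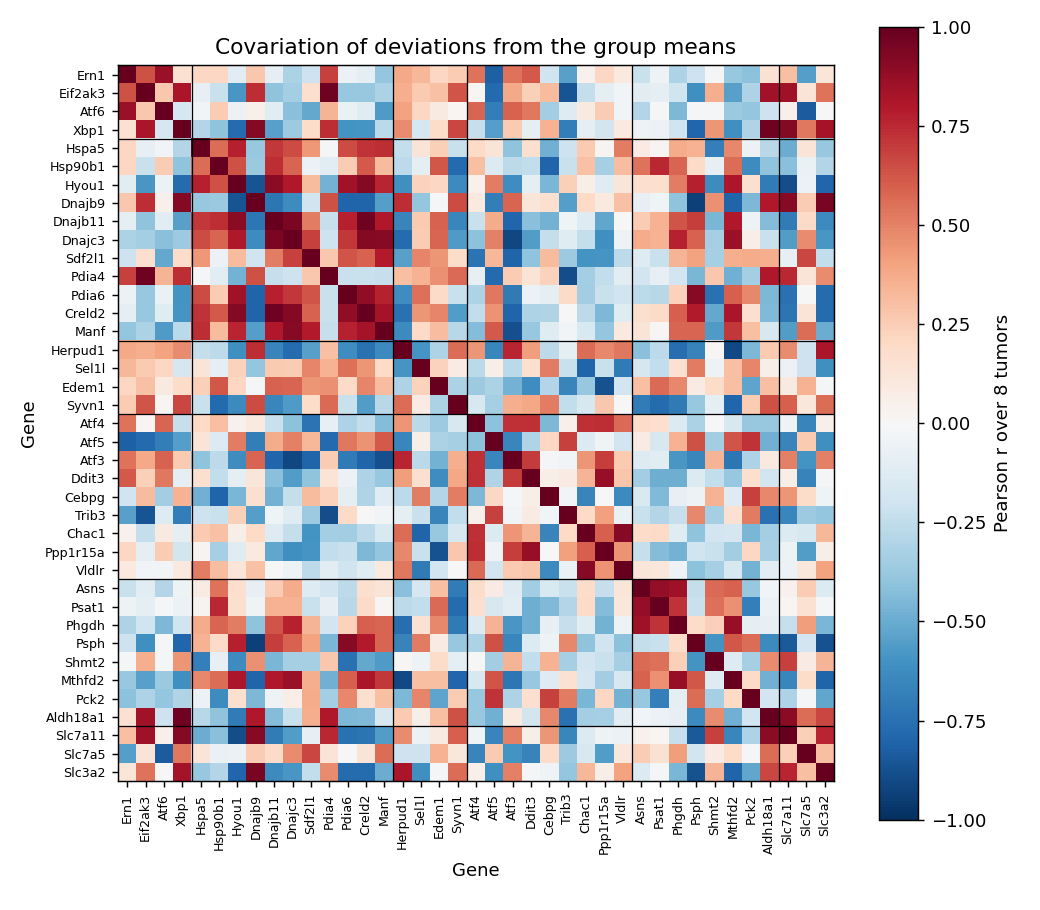
Pearson correlation between each pair of the 39 genes, computed over 8 tumors from deviations from the mean of the tumor's own group (colour, -1 to 1). Lines part the roles in the order sensors, chaperones, ER degradation, ATF4 factors and targets, enzymes, transporters. The chaperone block is mostly red with Dnajb9 and Pdia4 apart, and the ATF4 blocks are mixed.

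**Figure D5:**
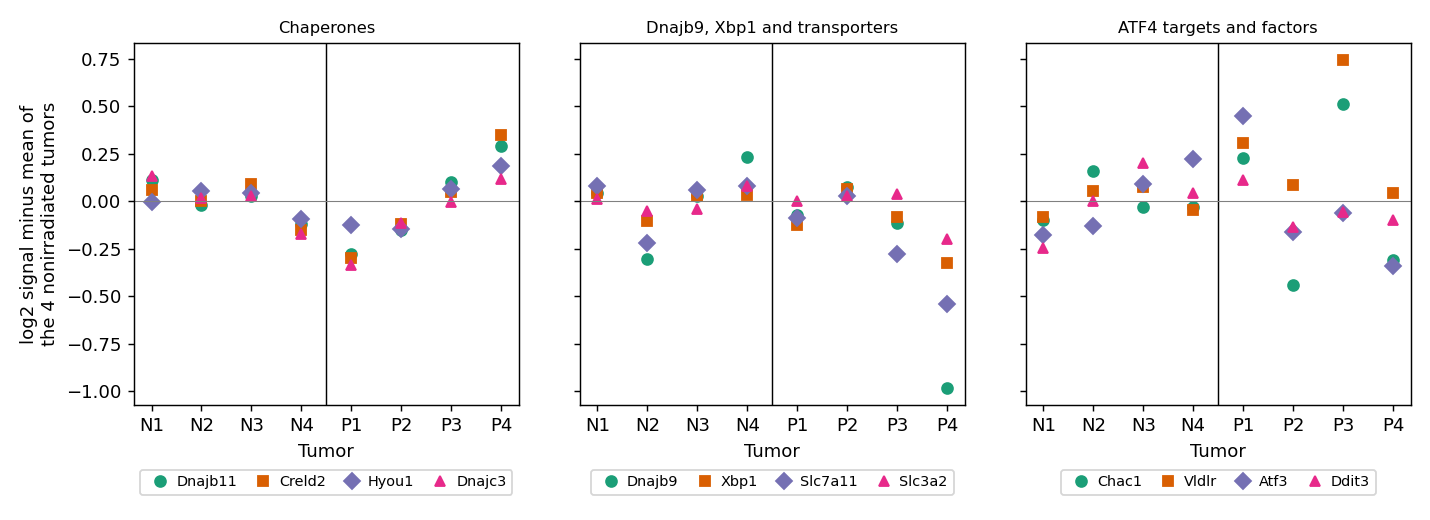
Log2 signal minus the mean of the 4 nonirradiated tumors for 12 genes, by tumor (N nonirradiated, P preirradiated), 1 symbol per gene. Dnajb11 and Creld2 are lowest in P1 and highest in P4, Dnajb9 and Slc7a11 are lowest in P4, and Chac1 and Vldlr are high in P1 and P3.

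Other genes of the same pathways were counted from lists made for this comparison. Of 36 measured among other ER folding and degradation genes 19 were higher and 17 lower, with 1 in each direction at an unadjusted limma p under 0.05 and a median difference of 0.006. Of 39 measured among other ATF4 and amino acid response genes 14 were higher and 25 lower, again with 1 in each direction and a median of -0.015. Of all genes 2.39% were higher and 3.27% lower at that p, so 1 gene in lists of this length is near the background. None of these passed the adjusted threshold by limma. The genes described next have the smallest p of their list and direction, and fewer than the 3 allowed in each are given.

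One of them passed the study's filter. Creb3l1 encodes OASIS, a membrane-bound factor of the ATF6 kind known from collagen-secreting cells, and it had signals of 7.38, 7.44, 7.66 and 7.54 in the nonirradiated and 8.08, 7.86, 8.11 and 7.57 in the preirradiated tumors. Preirradiated tumors 1 to 3 lay above every nonirradiated tumor and tumor 4 did not. The difference was 0.40 (standard error 0.123, limma unadjusted p = 0.0113, adjusted p = 0.773), right at the limit of the filter. It missed the filter at 0.37 with centred arrays, just below the limit after a further quantile normalization, and at 0.21 without both preirradiated tumors 1 and 3. With single tumors left out the difference was 0.33 to 0.51, and it fell short of the filter in 4 of these 8 cases. The values there were 0.36 and 0.38 when nonirradiated tumors 1 and 2 were omitted in turn, and 0.34 and 0.33 when preirradiated tumors 1 and 3 were. Of 10 fibroblast and matrix genes 9 were higher, 6 of them at an unadjusted limma p under 0.05, against 2.39% of all genes. Their mean deviation was 0.56, 0.20, 0.45 and 0.26 in preirradiated tumors 1 to 4 against -0.14 to 0.07 in the nonirradiated ones. It was thus raised also in preirradiated tumor 4, where Creb3l1 lay within the nonirradiated range. The part of fibroblasts in the Creb3l1 signal was not tested.

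Creb3, a factor of the same family, had 9.08, 9.20, 9.20 and 9.18 in the nonirradiated and 9.01, 9.09, 8.98 and 9.06 in the preirradiated tumors, a difference of -0.13 (standard error 0.043, limma adjusted p = 0.790). Nonirradiated tumor 1 lay just below the highest preirradiated tumor. Slc6a9, a glycine transporter, gave 9.39, 9.31, 9.35 and 9.31 against 9.14, 9.29, 8.99 and 9.13, a difference of -0.20 (standard error 0.061, limma adjusted p = 0.772), and here the groups did not overlap. Aldh1l2, a mitochondrial folate enzyme, gave 5.21, 5.31, 5.44 and 5.37 against 5.55, 5.40, 5.63 and 5.53, a difference of 0.20 (standard error 0.065, limma adjusted p = 0.809), with groups that overlapped at a single tumor on each side. Vegfa, an ATF4 target that also answers to hypoxia, had 9.19, 9.25, 9.73 and 9.43 against 9.93, 9.62, 9.61 and 9.59, a difference of 0.29 (limma adjusted p = 0.851), with nonirradiated tumor 3 among the preirradiated tumors. Pdia3, a disulfide isomerase for glycoproteins, was next by p among the lower ER genes, with a difference of -0.093 (standard error 0.044, limma adjusted p = 0.859).

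Markers of other cell types and of hypoxia are given as mean deviations over a list from the nonirradiated mean. Besides muscle, preirradiated tumor 1 had adipocyte genes 1.27 above the nonirradiated mean and the lowest T and NK cell genes, at -1.1. The T and NK cell genes were also low in preirradiated tumor 4, at -0.79, against -0.49 to 0.44 in the nonirradiated tumors. Of these 7 genes 7 were lower in preirradiated tumors, against 52.6% of all genes. At an unadjusted limma p under 0.05 there were 2 of them, against 3.27% of all genes. Plasma cells are rich in ER chaperones, and of their 8 genes in the list 6 (Jchain, Mzb1, Tnfrsf17, Irf4, Pou2af1 and Cd79a) had log2 signals between 4.60 and 5.92 in the 8 tumors. Prdm1 lay at 6.91 to 7.23, and Sdc1, which epithelial cells also express, at 10.50 to 10.75. Macrophage genes were lower in 8 of 8 cases, against 52.6% of all genes, with list means of -0.25 to -0.05 in preirradiated tumors. At an unadjusted limma p under 0.05 there were 3 of these 8, against 3.27% of all genes. Endothelial genes were higher in 6 of 6 cases, 2 of them at that p, against 2.39% of all genes. Hypoxia response genes stood at 0.22 in preirradiated tumor 1 and -0.25 in preirradiated tumor 4, and at -0.17 to 0.18 in the nonirradiated tumors. Preirradiated tumors 1 and 4 were also the extremes of Atf3 in this order and of Dnajb11 in the reverse order, genes picked after their values had been seen. Over all genes preirradiated tumor 4 was the highest of 8 for 20.1% and the lowest for 13.5%, and preirradiated tumor 1 for 11.1% and 15.4%. Epithelial markers stood at 0.11 to 0.47 in preirradiated and -0.19 to 0.37 in nonirradiated tumors. The part of these differences in the values of the stress genes was not tested.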

How the data were processed

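Total RNA of whole tumor tissue was hybridized to Affymetrix Mouse Gene 1.0 ST arrays, 1 per tumor, per the labels' protocols. The authors deposited log2 signals per probe set after RMA (background correction, quantile normalization and summary of probes) with the affy package, per the series' design text, in R 2.15.3, per the submitters' processing notes. Which chip description file they used was not given in the sources used here. RMA makes the arrays alike, so a change in total RNA cannot be seen, and it tends to understate differences of dim genes.

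Probe sets with a mean of at least 4.0 were tested (34738 of 34760). Of all probe sets 21640 list 1 gene symbol, 1321 several and 11799 none in the platform annotation, and genes were taken from the first kind. Preirradiated and nonirradiated tumors (titles of the samples) were compared by a two-sided limma test on all 8 tumors (limma 3.58.1, R 4.3.3), with Benjamini-Hochberg adjustment over all probe sets tested. The pipeline was tested on simulated data. The 39 genes, the lists of other genes and the tests were chosen with earlier results of these data known. Values per tumor are given for the 4 sensors and, in each other role, the 3 genes with the smallest p, and, of the lists of other genes, for up to 3 in each direction with the smallest p. The text marks other genes given with values as picked after seeing them. Values written as a level are log2 signals, and differences are preirradiated minus nonirradiated on the log2 scale. The replicate numbers of the titles do not pair the tumors: deviations of same-numbered tumors correlated between -0.29 and -0.075.

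Settings tried besides were other expression limits, other variance models, centring, a second quantile normalization, array weights, a replicate block, the probe set per gene, the change limit, leaving out each tumor, and leaving out preirradiated tumors 1 and 3. Leaving out preirradiated tumors 1 and 4 for the correlations was added after seeing the data.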

Additional observations from a re-analysis of the deposited data

Results flagged for a closer look

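Of 78 sets of 4 tumors (39 genes in each group), 3 held a tumor that stood apart from the other 3 by Dixon's criterion at 95%, and chance alone gives about 1 in 20. All 3 were nonirradiated tumors. Xbp1 was low in nonirradiated tumor 2, at 11.03 against 11.16 in the next tumor. Slc7a11 was low in the same tumor, at 8.95 against 9.23. Psat1 was high in nonirradiated tumor 1, at 8.58 against 8.19.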

How the results depend on the processing

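Under the alternatives run for the differences, 0 members passed the adjusted threshold or the study's filter, also at a change limit of 0.3, where 321 probe sets were higher and 117 lower in preirradiated tumors (170 and 53 at 0.4). Leaving out single tumors gave 126 to 320 probe sets higher, the most without preirradiated tumor 4, and 43 to 105 lower, the most without preirradiated tumor 2. Members at an unadjusted p under 0.05 (0 in either direction) were 1 higher and 3 lower with array weights (3.26% and 4.22% of all genes), 4 lower with centred arrays (7.57% of all genes), 1 lower without both preirradiated tumors 1 and 3 (1.37% of all genes), and 0 to 1 higher and 0 to 3 lower without single tumors (1.72% to 3.07% and 2.14% to 4.54% of all genes). The mean difference of the ATF4 factors moved to -0.117 without both preirradiated tumors 1 and 3. With the replicate block 32 members were lower, 0 passed the filter and the contrast of the branches was 0.012. Direction turned for small differences. With array weights Atf6 was at -0.003, Sel1l at -0.002 and Chac1 at 0.13. With centred arrays Atf6 was at -0.020, Sel1l at -0.011 and Mthfd2 at -0.004. After a further quantile normalization Slc3a2 was at 0.007, Dnajb11 at 0.013, Creld2 and Hyou1 at 0.015, Hspa5 at 0.020 and Chac1 at 0.003. Without both preirradiated tumors 1 and 3 Atf6 was at -0.007, Dnajb11 at 0.072, Creld2 at 0.115, Hyou1 at 0.023 and Dnajc3 at 0.001. Without single tumors the ranges were -0.072 to 0.016 for Ern1, -0.018 to 0.050 for Atf6, -0.057 to 0.023 for Slc3a2, -0.105 to 0.082 for Dnajb11, -0.125 to 0.092 for Creld2, -0.068 to 0.041 for Hyou1, -0.032 to 0.005 for Hspa5, -0.173 to 0.144 for Chac1, -0.054 to 0.004 for Atf4, -0.187 to 0.075 for Atf3, -0.127 to 0.023 for Ddit3 and -0.077 to 0.092 for Mthfd2. Without preirradiated tumors 1 and 4 the median correlation of chaperones turned to 0.04 with all ATF4 branch genes, 0.08 with ATF4 factors and -0.10 with ER degradation genes. Causes were not tested.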
